A study of Drosophila melanogaster with 3 samples.

Results

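The near-start intergenic summits of CG44002-eGFP are the peak summits that lay outside every annotated gene body, more than 500 bp and at most 5 kb (5000 bp) from the nearest annotated gene start. They numbered 859 of the 7089 summits in the list of reproducible peaks. They were chosen from position and annotation alone, and no signal value entered the choice. Chromatin immunoprecipitation followed by sequencing was done with an anti-GFP antibody on whole Drosophila melanogaster prepupae of pooled sexes, the stage between larva and pupa, whose age was not given. The animals carried a transgene that fuses GFP to the C-terminal end of CG44002, in the strain labelled CG34406-GFP. Chromatin was sonicated to 200 to 800 bp, and the series holds 3 biological replicates of 1 group, with no contrast. Which promoter drives the tagged copy, and whether untagged CG44002 was also present, is not stated in the labels. Whole animals mix all tissues, so a peak found in a few cells cannot be told apart from a weak peak found in many.

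In the compact fly genome, the DNA between genes close to their starts commonly holds enhancers, insulators and upstream parts of promoters. A protein bound there may act on the gene that starts nearby, on the gene on the other side of the gap, or on neither. Position therefore names neighbours and not targets. The signal of a peak is the value the authors gave it, on a scale that is not stated, and it serves here only to rank peaks within 1 list. The reproducible list (the IDR list, from the irreproducible discovery rate, which asks how well peak ranks repeat) was called on pooled replicates, so it carries no replicate error. Every SD below is taken over the 3 replicate lists, each trimmed to its 7089 strongest peaks, called its top N. Read depth is unknown from these files, and the number of replicates limits the precision.

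The sequences under the 8 strongest near-start intergenic summits found in the top N of all 3 replicates are shown first, because the base composition of the summit is the clearest feature these regions have in common. Each window is centred on the summit, is read on the plus strand of dm6, and is named by the gene with the nearest start. Capitals mark runs of at least 8 bases that are all A or T.
CG31668 (chr2L:2202356-2202456): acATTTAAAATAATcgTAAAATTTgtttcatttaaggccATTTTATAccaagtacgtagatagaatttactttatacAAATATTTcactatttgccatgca
CG43245 (chr3L:10776509-10776609): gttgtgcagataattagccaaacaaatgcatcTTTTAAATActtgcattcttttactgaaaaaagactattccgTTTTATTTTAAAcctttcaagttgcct
CG17746 (chr3L:3241064-3241164): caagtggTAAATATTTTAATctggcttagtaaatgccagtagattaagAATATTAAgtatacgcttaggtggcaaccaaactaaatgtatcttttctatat
fz (chr3L:14272531-14272631): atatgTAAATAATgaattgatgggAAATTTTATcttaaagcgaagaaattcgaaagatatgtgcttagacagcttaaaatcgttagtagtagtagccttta
COX7AL2 (chr2L:2199302-2199402): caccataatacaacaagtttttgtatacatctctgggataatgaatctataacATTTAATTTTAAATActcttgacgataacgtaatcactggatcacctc
ds (chr2L:715515-715615): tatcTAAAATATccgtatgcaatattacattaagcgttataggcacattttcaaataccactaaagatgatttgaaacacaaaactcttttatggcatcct
lncRNA:CR45234 (chr3L:18195150-18195250): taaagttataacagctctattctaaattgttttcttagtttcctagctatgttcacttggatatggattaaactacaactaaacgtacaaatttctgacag
lncRNA:CR42794 (chrX:5696500-5696600): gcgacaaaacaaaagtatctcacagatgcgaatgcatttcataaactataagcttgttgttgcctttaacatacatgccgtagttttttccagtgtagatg

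All 8 windows were rich in A and T, from 63.4% in the window near lncRNA:CR42794 to 75.2% in the window near CG31668. The window near CG31668 had 36 bases in such runs, and its longest run was 12 bases. The window near COX7AL2 had a single run, of 15 bases. The windows near lncRNA:CR45234 and lncRNA:CR42794 had no run of 8, and their longest were 6 bases. A run of at least 8 was therefore present in most of these 8 windows and not in each. Its share in other windows of that A/T content was not measured.

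For contrast, the windows with the least A and T among near-start intergenic summits in the top N of all 3 replicates follow.
lncRNA:CR44588 (chr2L:12012313-12012413): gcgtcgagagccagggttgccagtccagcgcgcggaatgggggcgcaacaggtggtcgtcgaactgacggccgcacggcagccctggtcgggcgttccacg
upd3 (chrX:18272673-18272773): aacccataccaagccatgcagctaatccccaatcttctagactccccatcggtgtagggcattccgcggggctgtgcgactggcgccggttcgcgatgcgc

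The window near lncRNA:CR44588 held 28.7% A and T, and that near upd3, which encodes a JAK/STAT pathway cytokine, held 38.6%. The first ranked 4950, 5111 and 5713 in replicates 1, 2 and 3. The summit near upd3 ranked 4242 in replicate 1, and in replicates 2 and 3 it lay inside peaks, ranked 2360 and 2952, that also held a neighbouring summit of 74% A and T. Those 2 ranks are therefore not its own. Both summits lay well below the strongest in the IDR list, at ranks 5053 and 4234.

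Over all near-start intergenic summits, the central 100 bp held 68.9% A and T in the IDR list. In the top N lists the values were 68.2% in replicate 1, 68.8% in replicate 2 and 68.6% in replicate 3 (68.5% ± 0.319, SD, n = 3). The intergenic DNA that the same distance limits admit (called the territory below) held 59.4%, and the 6 chromosome arms together 57.7%. At 500 bp to either side the content was 56.7% and 57.0% in the IDR list. The summit exceeded its flanks by 12.1 percentage points in the IDR list and by 11.6 ± 0.208 points in the replicates. The summit was higher in 3 of 3 replicates (exact sign-flip test over replicates, two-sided p = 0.25, the smallest that 3 replicates allow). Among single summits, 736 of 859 (85.7%) held more A and T than the mean of their own flanks. The peak in composition was narrow: 150 bp from the summit the content was back to 57.5% on the left and 56.2% on the right, and at 250 bp it was lower than at 500 bp, at 54.2% and 53.8%.

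**Figure D1:**
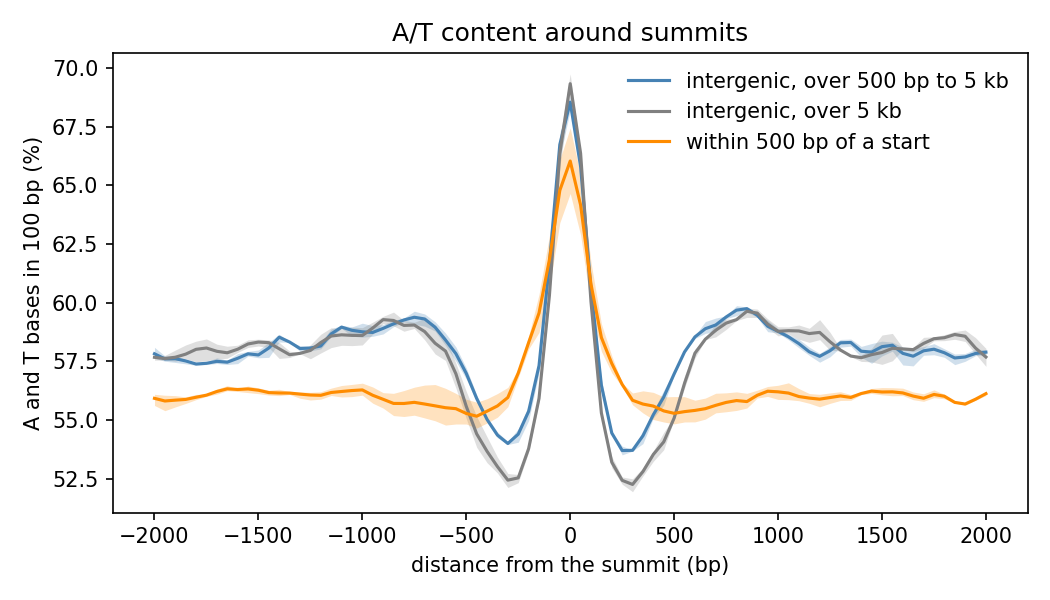
Percent A and T in 100 bp windows (y axis) by distance from the summit in bp (x axis) for 3 classes of summit; lines are means of the 3 replicates' top N lists and bands span the lowest to highest replicate. Near-start intergenic summits rise to 68.5% at the centre, between summits over 5 kb from a start (69.3%) and summits within 500 bp of a start (66.0%).

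The composition was not particular to this distance class. Intergenic summits more than 5 kb from a start held 69.8% A and T in the IDR list, and the difference of near-start minus these was -0.852 points there (-0.786 ± 0.504 points in the replicates, n = 3, exact two-sided p = 0.25). Summits within 500 bp of a start, called promoter summits, held 66.7%, and the near-start summits were higher by 2.19 points (2.51 ± 1.33, n = 3, exact two-sided p = 0.25, higher in 3 of 3). A run of at least 12 A/T bases lay in the 200 bp around 41.3% of near-start summits (41.7% ± 2.04 in replicates), against 20.6% of all 200 bp windows of the territory. The share was 39.1% at summits beyond 5 kb and 40.5% at promoter summits. Spearman's rho between A/T content and signal over the 859 summits was 0.11, given as a description of peaks that share libraries.

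Known consensus strings were searched for, either strand counting, within 200 bp windows centred on the summits and in 78391 windows of that length tiling the territory. Of 28 strings, 12 had a higher share at summits than in the tiling windows in all 3 replicates, 12 had a lower share in all 3, and 4 differed in direction between replicates. The string TATAAA, the core of the TATA box, lay near 39.8% of summits (39.6% ± 1.58 in replicates) and in 23.9% of windows. The alternating string ATATATAT lay near 8.73% of summits (8.67% ± 0.204) and in 3.66% of windows. The string TATTTATA, found in sites of the muscle factor Mef2, lay near 8.73% of summits and in 4.27% of windows, and a run of 8 A near 16.8% and in 11.4%. The homeodomain core TAATTA lay near 19.9% of summits and in 15.5% of windows. The strings that led were thus themselves made of A and T.

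Compared at equal A/T content, the differences changed. Among summits whose 200 bp held 65 to 70% A and T, TATAAA lay near 37.5% (106 of 283), against 38.9% of windows with that content. In the 70 to 75% class the shares were 54.2% and 52.5%. Every other class also had the higher share of TATAAA at summits. The shares were 11.5% and 8.28% below 55%, and 20.3% and 16.7% from 55 to 60%. They were 28.5% and 26.5% from 60 to 65%, and 71.3% and 65.6% above 75%. TAATTA lay near 20.1% of the summits and in 20.4% of the windows in the 65 to 70% class, but near 10.1% and in 16.6% in the 60 to 65% class. ATATATAT was more frequent at summits in the classes richest in A and T, at 13.4% (27 of 201) against 8.76% from 70 to 75% and 21.3% against 14.2% above 75%. The run of 8 A lay near 13.5% of summits (7 of 52) and in 4.42% of windows under 55%, and near 17.3% and in 16.3% from 65 to 70%. This comparison was chosen after the shares were seen, and none of these shares was tested.

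Apart from TATAAA, the strings of factors that act at insulators and promoters had low shares both at summits and in windows. The string TATCGATA, the DRE element of housekeeping promoters, lay near 0.698% of near-start summits (6 of 859), in 0.39% of windows and near 4.13% of promoter summits. GGTCACACT, bound by the promoter factor M1BP, lay near 0.233% (2 of 859), in 0.074% of windows and near 1.52% of promoter summits. TCGATA, used by the insulator factor BEAF, lay near 6.40% of summits in the IDR list, 7.01% ± 0.329 in the replicates, 6.43% of windows and 13.6% of promoter summits. GCATACTT, part of the Su(Hw) insulator site, lay near 2.21% of summits (2.24% ± 0.279) and in 1.13% of windows. GAGAGAG, bound by GAGA factor, lay near 2.44% of summits and in 2.17% of windows.

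Among developmental and signalling factors, the string of GATA factors (TGATAAG) lay near 3.61% of summits and in 2.65% of windows, AP-1 (TGANTCA) near 4.42% and in 3.84%, and Sox (AACAAT) near 23.3% and in 21.5%. Zelda (CAGGTAG) lay near 0.931% and in 0.871%, Abd-B (TTTATG) near 26.1% and in 25.2%, and Su(H) (GTGGGAA) near 2.44% and in 2.79%. The strings less frequent at summits in all 3 replicates included the core nuclear receptor site AGGTCA, at 2.79% of summits (2.94% ± 0.182) and 4.67% of windows. The longer Ftz-F1 string CAAGGTCA lay near 1 summit, a share of 0.116%, and in 0.393% of windows. Scalloped (CATTCC) lay near 6.75% and in 10.1%, Pho (AAATGGC) near 4.54% and in 7.02%, and Runt (AACCGCA) near 0.698% and in 2.83%. Ets (CCGGAA) lay near 3.26% and in 5.43%, STAT (TTCNNNGAA) near 4.66% and in 6.07%, and POU (ATGCAAAT) near 3.73% and in 4.54%. The E-box of Max (CACGTG) lay near 1.40% and in 2.42%, a CA repeat (CACACACA) near 3.38% and in 4.62%, forkhead (TGTTTAC) near 3.26% and in 3.81%, and C/EBP (TTGCGCAA) near 0.349% and in 0.397%. At equal A/T content several of these were not lower at summits in some classes. In the 55 to 60% class the CA repeat lay near 17.2% of summits (11 of 64) and in 6.01% of windows. In the 60 to 65% class the Ets string lay near 4.47% and in 4.31%, and the E-box near 2.23% and in 1.89%. The same strings were lower at summits in other classes. The CA repeat stood at 2.23% and 3.69% from 60 to 65%, and the E-box at 1.56% and 2.68% from 55 to 60%. From 70 to 75% Ets stood at 0.995% and 2.00%. AGGTCA was lower at summits in every class but that from 55 to 60%. A string is a description of letters, and its absence from a window says nothing of the factor.

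Strings of 6 bases were also ranked on arms 2L and 3L (456 summits, 548 strings present at 5% or more of them) by the ratio of summit to flank share in 100 bp windows, and the leading 6 were then read on the other arms (403 summits). There ATATCA lay at 10.4% of summits and 5.46% of flanks, and in the replicates at 10.9% ± 0.656 of summits. CTTATA lay at 8.44% of summits and 3.85% of flanks, GTTATA at 8.93% and 2.73%, and CTTAAA at 16.1% and 7.44%. TAAGGA lay at 3.97% and 3.10%, and ACCTTA at 3.97% and 2.23%. Each of the 6 kept the higher share at summits on the arms that did not choose it, by a smaller ratio for TAAGGA and ACCTTA than for GTTATA. Over all arms the summits held 68.9% A and T and the flanks 56.7% and 57.0%. These strings were not compared at equal A/T content, so an excess beyond that of base composition was not tested.

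The summits stood in a territory of 16.4 Mb, 12.2% of the 6 arms. They made up 12.1% of the IDR list (95% exact binomial interval 11.4 to 12.9%, for counting error only) and 11.5%, 12.1% and 10.8% of the top N lists of replicates 1, 2 and 3 (11.5% ± 0.628, n = 3). Their density was 52.5 per Mb in the IDR list and 49.8 ± 2.72 per Mb in the replicates, close to that of the arms as a whole: the ratio to the arms was 0.94 ± 0.0514 (exact two-sided p = 0.25). Intergenic summits beyond 5 kb numbered 440 and stood at 21.9 per Mb. Promoter summits numbered 2565 and stood at 141 per Mb, and gene bodies held 3225 at 40.7 per Mb. The density near starts was 2.40 times that beyond 5 kb in the IDR list. The ratio was 2.44, 2.36 and 2.42 in replicates 1, 2 and 3 (2.41 ± 0.0417, above 1 in 3 of 3, exact two-sided p = 0.25).

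The territory beyond 5 kb includes windows of 1 Mb in which over 20% of bases are annotated transposable elements. With those windows left out of both territories, an alternative chosen after seeing the data, the ratio was 2.19 in the IDR list and 2.20 ± 0.0378 in the replicates. Only 2 near-start summits (0.233%) lay inside an annotated transposable element, whereas such elements covered 6.69% of the territory.

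Density was highest within 2 kb of a start. It was 65.2 ± 3.78 per Mb from 0.5 to 1 kb and 57.9 ± 4.37 per Mb from 1 to 2 kb, and 38.7 ± 3.24, 41.2 ± 2.00 and 43.6 ± 1.34 per Mb in the following 3 bins of 1 kb (SD, n = 3). From 5 to 10 kb it was 37.9 ± 1.90, from 10 to 20 kb 22.7 ± 2.30 and beyond 20 kb 3.99 ± 0.477 per Mb. In each replicate the density was lower from 1 to 2 kb than from 0.5 to 1 kb and lower again from 2 to 3 kb, then rose in each of the next 2 bins. It was lower from 5 to 10 kb than from 4 to 5 kb in 3 of 3 replicates, at 37.5, 39.9 and 36.1 against 44.1, 44.5 and 42.0 per Mb. At the limits themselves, the summits near CG17896 and ft, which encodes an atypical cadherin of growth control, lay 502 bp from a start and were included. Those near CG11898 and Irk2 lay at 500 and 498 bp and were not. At the upper limit the summits near tal-1A (4990 bp) and lncRNA:CR46197 (4974 bp) were included, and those near CG13481 (5007 bp) and Tollo (5025 bp) were not.

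**Figure D2:**
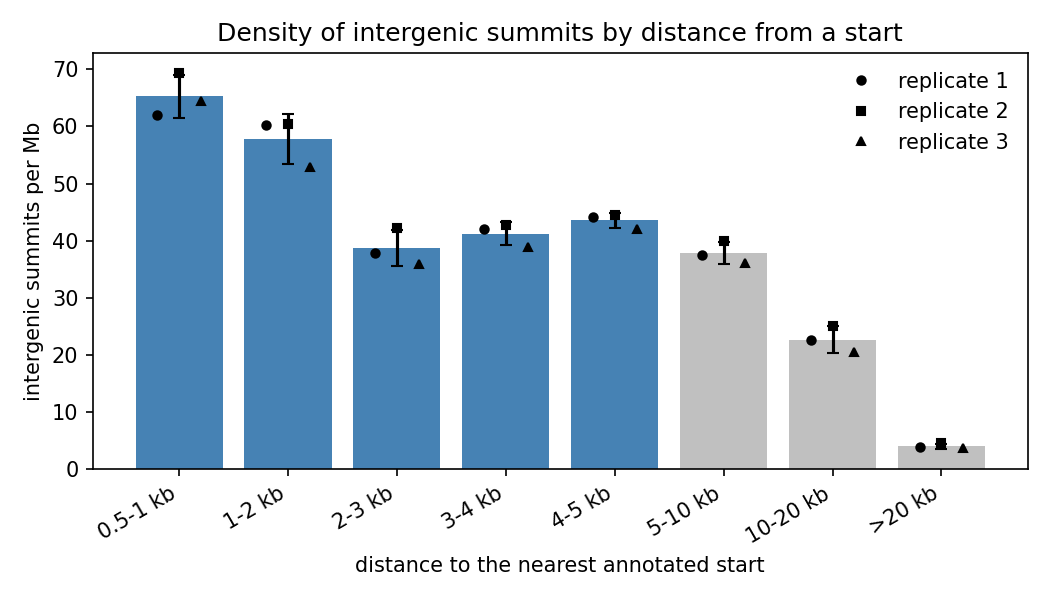
Intergenic summits per Mb (y axis) by distance to the nearest annotated start (x axis); bars are means of the 3 replicates' top N lists, error bars are SD and symbols are single replicates. Blue bars are the near-start class: density is 65.2 per Mb at 0.5 to 1 kb and 43.6 per Mb at 4 to 5 kb, and grey bars fall to 3.99 per Mb beyond 20 kb.

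The median distance to the nearest start was 1741 bp (quartiles 1051 and 3171 bp). In 608 of 859 cases (70.8%) the summit lay upstream of that start, and in 251 it lay past the 3′ end of the gene. A summit past the 3′ end must lie beyond the whole gene body with that start still nearest. The share of the territory upstream of its nearest start was not measured, so these counts alone cannot show a preference for either side. The nearest start belonged to a protein-coding gene for 529 summits, a noncoding RNA gene for 296, a tRNA gene for 31, a small nucleolar RNA gene for 2 and a pseudogene for 1. Gaps between genes transcribed away from each other (divergent) held 257 summits at 58.8 per Mb of territory, gaps between genes in the same direction (tandem) 444 at 51.6 per Mb, and gaps between genes that face each other (convergent) 158 at 47.2 per Mb. The ratio of divergent to tandem was 1.14 in the IDR list and 1.17, 1.03 and 1.14 in the replicates (1.11 ± 0.0728, exact two-sided p = 0.25). The excess over 1 was of the order of the spread between replicates.

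Several summits often shared a gap. The 859 summits lay in 579 of the 6388 gaps that had territory, and 451 of them (52.5%) were in gaps with at least 2. Gaps that held a summit were long, with a median of 6007 bp against 1707 bp over all gaps with territory. Whether sharing exceeds what gap length alone would give was not tested. Peaks of 80 summits overlapped the peak of another, so the members form 819 separate stretches and are not independent. Another summit of the IDR list lay within 1 kb of 34.9% of near-start summits, against 30.2% beyond 5 kb and 26.4% at promoters. The most crowded gap, 26875 bp on 3L between CG17154 and vers (12089226 to 12116100), held 7. The strongest of these ranked 1090 in the IDR list and 1001, 1216 and 1323 in replicates 1, 2 and 3, and the weakest ranked 6718. Of the 7, 5 were in the top N of all 3 replicates.

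Gaps with 6 were found on 3L between tRNA:Ile-TAT-1-2 and CG13898 (770463 to 803426), on 3L between dls and CG13073 (16202033 to 16213050), on 3L between CR33283 and CG12984 (20979651 to 20991672), and on 3R between CG18404 and lncRNA:CR46113 (30254098 to 30272761). All 6 in the first of these gaps were in the top N of all 3 replicates, with the best at rank 302. Gaps with 5 lay on 3L between lncRNA:CR45937 and lncRNA:CR45936, between Dyro and CG7573, between lncRNA:CR45036 and lncRNA:CR42755, and between lncRNA:CR45755 and lncRNA:CR45437. Of these 9 gaps with at least 5, all but that on 3R were on 3L.

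The density was highest on 3L. It held 287 near-start summits at 82.1 per Mb of territory, against 47.0 on 2L, 40.4 on 2R, 46.8 on 3R and 43.1 on X. The small chromosome 4 held 2, at 16.7 per Mb. In replicates 1, 2 and 3 the density on 3L was 75.5, 85.3 and 77.5 per Mb (79.4 ± 5.14), and on the other large arms together 43.1, 43.6 and 38.8 per Mb (41.9 ± 2.64). The groups of values did not overlap. The ratio was 1.84 in the IDR list and 1.90 ± 0.132 in the replicates (above 1 in 3 of 3, exact two-sided p = 0.25). This comparison was chosen after the densities by arm were seen.

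Promoter and gene-body summits did not show that difference. The ratio of 3L to the other large arms was 1.02 ± 0.0229 for promoter summits and 0.998 ± 0.0344 for summits in gene bodies, but 1.66 ± 0.0562 for intergenic summits beyond 5 kb. The near-start ratio divided by the promoter ratio was 1.67, 1.94 and 1.97 in the 3 replicates (1.86 ± 0.167, exact two-sided p = 0.25). Divided by the ratio beyond 5 kb it was 1.15 ± 0.113. Intergenic summits at both distances were therefore denser on 3L, while summits at starts and in genes were not.

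**Figure D3:**
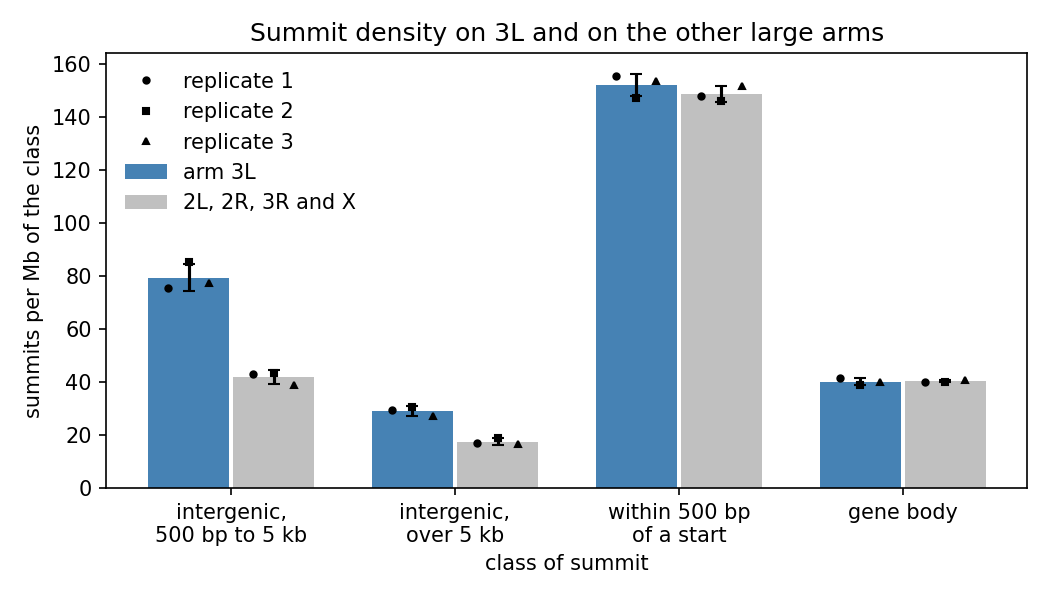
Summits per Mb of their own class of territory (y axis) on arm 3L and on 2L, 2R, 3R and X together, for 4 classes of summit (x axis); bars are means of 3 replicates, error bars are SD and symbols are replicates. Near-start intergenic summits stand at 79.4 per Mb on 3L and 41.9 elsewhere, while gene-body summits stand at 40.3 in both.

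On 3L, 171 of 1325 gaps with territory (12.9%) held a near-start summit, against 406 of 5007 (8.11%) on the other large arms. A gap that held any held 1.68 on average on 3L and 1.40 elsewhere. Both more gaps with summits and more summits per gap thus went with the higher density. The territory of 3L held 60.1% A and T against 59.2% elsewhere, and its gaps had a median length of 1769 bp against 1688 bp; the part of these in the difference was not tested. Along 3L the density was 185 per Mb from 0 to 2 Mb, 156 per Mb from 10 to 12 Mb and 125 per Mb from 16 to 18 Mb. Without the first 2 of these windows, which were picked as the densest, the ratio was 1.46 in the IDR list and 1.50 ± 0.109 in the replicates.

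Near-start summits were denser where the gene of the nearest start had a summit within 500 bp of any of its starts. Such starts are called bound here. Beside them the density was 141 per Mb (212 summits), and beside other starts 43.5 per Mb (647 summits). In replicates 1, 2 and 3 the ratio was 3.30, 3.24 and 3.61 (3.38 ± 0.20, above 1 in 3 of 3, exact two-sided p = 0.25). It was 3.40 ± 0.234 between 0.5 and 1 kb, 3.36 ± 0.352 between 1 and 2 kb and 3.26 ± 0.0849 between 2 and 5 kb, and in the IDR list 3.37, 3.32 and 2.93 in these bins. Most near-start summits had an unbound nearest start. Of the 620 genes that owned a nearest start, 149 (24.0%) had a promoter summit, against 997 of the 7658 genes that own any territory (13.0%). The comparison was chosen after other results were seen, and local differences in chromatin or gene density were not tested.

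**Figure D4:**
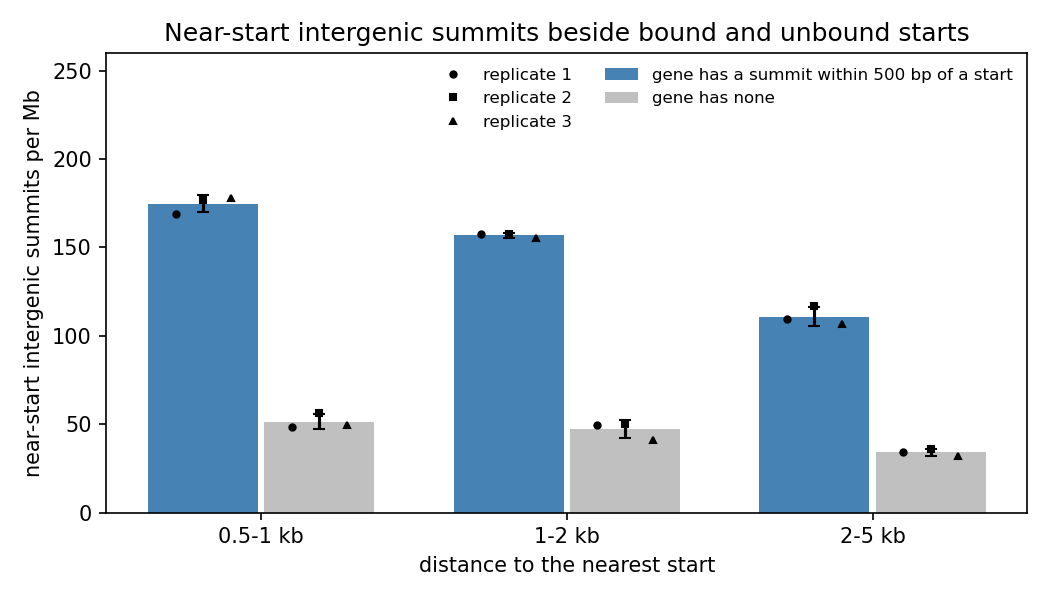
Near-start intergenic summits per Mb (y axis) by distance to the nearest start (x axis), split by whether the gene of that start has a summit within 500 bp of a start; bars are means of 3 replicates, error bars are SD and symbols are replicates. Beside bound starts the ratio is 3.40 in the closest bin and 3.26 in the farthest.

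Signal near starts was lower than at promoters. Near-start summits had signals from 84.9 to 1934, with a median of 145 (quartiles 108 and 244), against medians of 141 beyond 5 kb and 174 at promoters. In percentile of the list, their median minus that of promoter summits was -11.2 points in the IDR list. It was -7.56, -10.1 and -2.69 points in replicates 1, 2 and 3 (-6.78 ± 3.77, exact two-sided sign-flip p = 0.25). Near-start summits exceeded those beyond 5 kb in median percentile by 1.73 points in the IDR list. In the replicates the excess was 3.07 ± 2.00 points (exact two-sided sign-flip p = 0.25). With transposable elements kept as genes, however, the IDR difference was -0.458 points. Among the strongest 10% of the list stood 61 of them (7.10%), against 14.5% of promoter summits. Signal did not follow distance: Spearman's rho over the 859 was -0.0078, a description over peaks of shared libraries.

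Replicate support was like that of the other intergenic summits. In the top N of all 3 replicates lay 551 (64.1%, exact interval 60.8 to 67.4%), in that of 2 replicates 211, in that of 1 replicate 92 and in none 5. The share was 64.1% beyond 5 kb and 67.9% at promoters. Replicate 3 held 682 in its top N, replicate 1 held 742 and replicate 2 held 743. In the full lists of 30000 peaks, 850, 843 and 850 lay inside a peak of replicates 1, 2 and 3.

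The strongest near-start summit lay on 2L (2202149 to 2202617), 3760 bp past the start of CG31668 and beyond its 3′ end, with a signal of 1934. It ranked 10 in the IDR list and 9, 16 and 10 in replicates 1, 2 and 3. The same 5808 bp gap held a second strong summit, 1440 bp upstream of COX7AL2, a gene for a cytochrome c oxidase subunit 7A-like protein, which ranked 159 and, by replicate, 175, 148 and 214. A gap of 11190 bp on 3L held the next strongest, 4634 bp past the start of CG43245 (10776359 to 10776766), at ranks 58, 34 and 48. These 3 were ranked alike by the replicates.

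Strong summits also lay upstream of the coding genes fz, ds and CG17746. The peak at 14272353 to 14272815 on 3L lay 1762 bp upstream of fz, the receptor of planar cell polarity and Wnt signalling, and ranked 139, 173 and 178 in the replicates. The peak at 715383 to 715755 on 2L lay 582 bp upstream of ds, which encodes the atypical cadherin Dachsous, and ranked 149, 181 and 188. Its gap was bordered by lncRNA:CR44988 and lncRNA:CR46260 and not by ds. Between CG17746 and CG12078 on 3L, a summit 1536 bp upstream of CG17746 ranked 121, 102 and 157.

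The gap between lncRNA:CR45234 and hid, an inducer of cell death, held a summit 972 bp upstream of the noncoding gene (3L, 18195001 to 18195353) at ranks 180, 201 and 199. A summit 573 bp upstream of lncRNA:CR42794 on X ranked 271, 196 and 288, and it was the only one of the 12 strongest whose nearest gene was also bound at a start. A summit 1795 bp upstream of E(spl)malpha-BFM, a Bearded-family gene of the Notch-regulated Enhancer of split complex, ranked 299, 160 and 259 (3R, 26008898 to 26009287). The remaining 3 of the 12 lay 1294 bp upstream of DNAlig3, which encodes a DNA ligase, 2516 bp upstream of Gr93d, a gustatory receptor gene, and 4001 bp past the start of CG6149. Their ranks ran from 183 to 328, from 128 to 276 and from 187 to 249, respectively. The gap of the summit near DNAlig3 lay between Sol1 and Cyp9f2, and that near Gr93d between asRNA:CR44087 and glec. Neither DNAlig3 nor Gr93d thus bordered the gap.

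**Figure D5:**
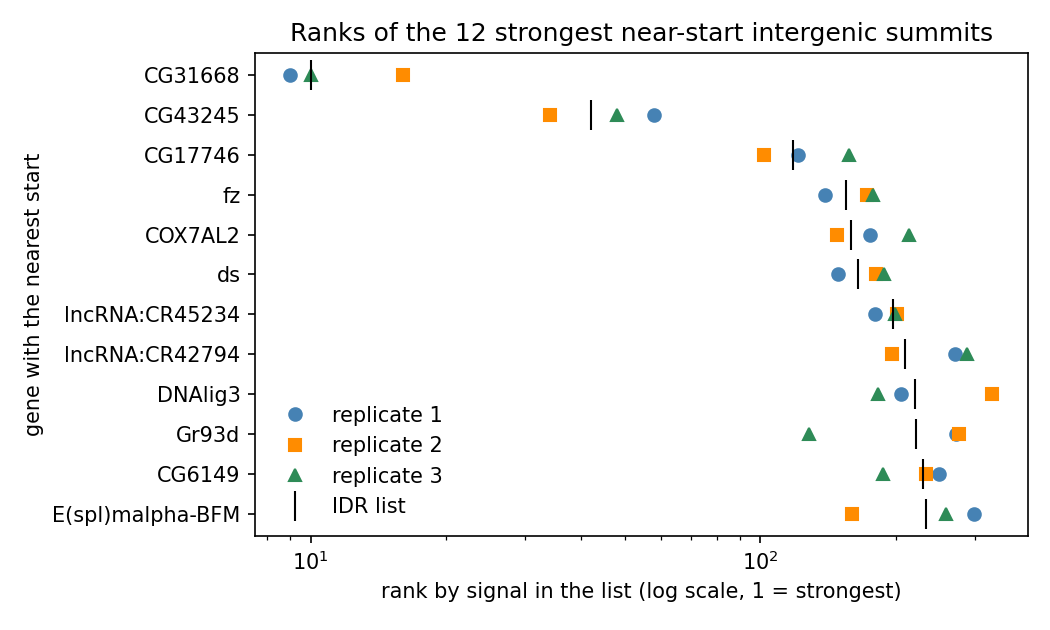
Rank by signal (x axis, log scale, 1 is strongest) of the 12 strongest near-start intergenic summits in each replicate's list and in the IDR list (vertical tick), labelled by the gene with the nearest start (y axis). The summit near CG31668 ranks 9 to 16 and that near CG43245 34 to 58, and the other 10 lie between 102 and 328.

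Of all 18164 genes, 620 (3.41%) owned the nearest start of a near-start intergenic summit, as did 409 of 13945 coding genes (2.93%). A summit within 500 bp of a start was found for 19.5% of coding genes. These shares are the background for the gene groups that follow. A gene in a short gap has little or no territory: only 7658 genes had any, of which the 620 are 8.10%. The groups are described without a test.

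Among 26 genes of the ecdysone response, the hormone system that starts metamorphosis, 4 (15.4%, exact interval 4.36 to 34.9%) had a near-start summit. A promoter summit was found for 14 of the 26, with none in common. Of the ecdysone genes with any territory, 0.0277 Mb in all, 4 of 14 (28.6%) had a near-start summit, beside 8.10% over all genes with territory. Over all genes with territory, 14.9% of those with a promoter summit and 7.07% of those without had a near-start summit. The lack of overlap in this small group was not tested. ImpE2, an ecdysone-induced gene of imaginal discs, had 2, the stronger 1474 bp upstream at ranks 2300, 3188 and 3507. Hr38, an orphan nuclear receptor gene, had 1 at 1634 bp, which ranked 2863 and 2478 in replicates 1 and 3 and lay in no peak of replicate 2. Eip78C, an early-late nuclear receptor gene, had 1 at 1683 bp at ranks 4488, 6356 and 11880. Among 16 genes of ecdysteroid synthesis and transport, 2 had near-start summits, or 2 of the 7 with territory (28.6%). Atet, a transporter of ecdysteroids, had 1 at 841 bp at ranks 995, 821 and 595, and shd, which makes 20-hydroxyecdysone, had 4. Both genes also had a promoter summit, as did 5 of the 16 in all.

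Cuticle protein genes had more near-start than promoter summits: 10 of 130 (7.69%, exact interval 3.75 to 13.7%) had a near-start summit and 1 had a promoter summit. Of the cuticle genes with any territory, 10 of 103 (9.71%) had a near-start summit, beside 8.10% over all genes with territory. Their summits stood at 83.7 per Mb in the IDR list and 64.4 ± 6.44 in the replicates, against 52.5 and 49.8 ± 2.72 over the whole territory. Cpr72Eb and Cpr72Ea, neighbouring cuticle genes on 3L, had summits 534 and 1207 bp upstream. Their ranks were 962, 662 and 640 for Cpr72Eb and 1083, 674 and 753 for Cpr72Ea. That of Cpr51A, 3071 bp upstream on 2R, ranked 1016 and 803 in replicates 1 and 3 and lay in no peak of replicate 2. Cytosolic ribosomal protein genes had near-start summits at 1 of 93 (RpL22-like, at 1097 bp) and promoter summits at 67. Only 31 of the 93 had any territory, 0.048 Mb in all, and 1 of these (3.23%) had a near-start summit. That was 20.8 per Mb in the IDR list and in each replicate. Of 31 genes of chitin handling, or 18 with territory, 1 had near-start summits: verm, a chitin deacetylase gene, had 2.

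Chemoreceptor and odorant-binding protein genes had near-start summits at 10 of 237 (4.22%) and promoter summits at 4. Of those with territory it was 10 of 134 (7.46%), beside 8.10% over all genes with territory. Gr93d and Gr93b on 3R and Ir94h on 3R held the strongest, at best ranks in a replicate of 128, 853 and 1140. Cytochrome P450 genes had 1 of 87 (Cyp6v1), neuronal adhesion genes 3 of 71 (dpr20, caps and trn, all on 3L) and genes of cell death and autophagy 1 of 35. Among genes with territory these were 1 of 43 (2.33%), 3 of 55 (5.45%) and 1 of 11 (9.09%), respectively. In the cell death group the gene was rpr, an inducer of cell death, with a summit 4313 bp upstream at ranks 3737, 3119 and 4394.

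Transcription factors that pattern the imaginal discs had near-start summits at 6 of 49 genes (12.2%, exact interval 4.63 to 24.8%). These summits stood at 54.6 per Mb of the genes' territory in the IDR list, against 52.5 over the whole territory. In the replicates the densities were 52.0 ± 11.9 and 49.8 ± 2.72 per Mb. The strongest lay 3744 bp upstream of ct, the homeodomain gene cut, at ranks 956, 2302 and 672. Those of dve, another homeodomain gene, and sob, an odd-skipped family gene, ranked 4440 and 4569 in the IDR list. Of 39 genes for secreted signals, 4 had near-start summits (10.3%), or 4 of the 27 with territory (14.8%). They included upd3 with 3, ths, an FGF ligand gene, with 1 at 1403 bp, and hh, the hedgehog gene, with 1 at 2914 bp that ranked 5383, 5259 and 10174. Of 24 Notch and bristle genes, or 14 with territory, 2 did: E(spl)malpha-BFM and E(spl)m2-BFM, the latter with a summit 512 bp upstream at ranks 472, 369 and 416.

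Noncoding genes were frequent neighbours. Long noncoding and antisense RNA genes had near-start summits at 190 of 2447 (7.76%, exact interval 6.73 to 8.90%). Of those with any territory it was 190 of 1342 (14.2%), beside 8.10% over all genes with territory, and 294 of the 859 summits had such a gene nearest. Per Mb of their territory that was 65.3 in the IDR list and 63.0 ± 4.08 in the replicates, against 49.8 ± 2.72 over the whole territory. lncRNA:CR45243 had 4, the strongest at ranks 279, 268 and 248. Transfer RNA genes had near-start summits at 16 of 295 (5.42%), or 16 of the 86 with territory (18.6%), with 31 summits at 131 per Mb in the IDR list and 118 ± 18.4 in the replicates. tRNA:Phe-GAA-1-6 had 4, tRNA:Lys-CTT-1-11 had 3 and tRNA:Ile-TAT-1-2 had 3, the strongest of each at IDR ranks 1189, 429 and 1158. Summits that share a tRNA gene share its gap, and 31 summits are therefore few independent places.

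Fat body genes had near-start summits at 2 of 15 (srp, a GATA factor gene, and NLaz, a lipocalin gene), muscle genes at 1 of 21 (Act87E). Genes of small nuclear or nucleolar RNAs had them at 2 of 306. No near-start summit was found at 8 Hox genes, 22 glue and 71E genes, 29 antimicrobial peptide genes, 26 heat shock genes, 115 histone genes or 260 microRNA genes. A count of 0 allows a share of up to 37.5%, 13.6%, 10.3%, 11.5%, 2.61% and 1.15% in these groups, respectively. Their territories were small, from 0.00728 Mb for glue and 71E genes to 0.0504 Mb for microRNA genes. The top N lists of single replicates did hold summits beside Hox, heat shock, histone and microRNA genes, at 56.4, 58.5, 30.4 and 19.8 per Mb. The limits for histone and microRNA genes lie below the 3.41% of all genes, but that share takes no account of territory. Whether any of the 6 groups differs from the background at equal territory was not tested.

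CG44002 itself (2L, 3169820 to 3171092, minus strand) owned the nearest start of no near-start intergenic summit. The closest summit of the IDR list lay 1865 bp upstream of its start at 3172957, but 158 bp from the start of the neighbouring pseudogene CR44003, which made it a promoter summit.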

How the data were processed

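ChIP-seq of CG44002-eGFP in 3 biological replicates of whole prepupae was analysed from deposited dm6 peak lists. Each replicate list of 30000 peaks was made from 1 library and 1 control, per the file inventory, and the list of 7089 peaks by an irreproducible discovery rate threshold on pooled replicates. The signal of each peak is as deposited by the authors. The sources used here do not name an aligner, a peak caller or a threshold. The control was not analysed here.

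Gene models were those of Ensembl release 115 (BDGP 6.54) without transposable elements: 18164 genes on 6 arms, 13945 of them coding. A missing gene model would turn a gene body into intergenic DNA. Promoters were within 500 bp of any start. Territory is every base that meets the same rule, and densities are summits per Mb of it. Sequence came from the release 6 reference. Overlap with a replicate means that the summit lies inside a peak of its list. Exact two-sided sign-flip tests over 3 replicates cannot go below 0.25. The labels number the replicates as biological; where the SD is given it measures their spread. Intervals are 95% exact binomial ones for counting error only, with 3 counts as the limit where none was found. Read depth is unknown.

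The summits named are the 12 strongest in the top N of all 3 replicates, the 8 gaps with most summits and another tied with the last of them, up to 3 genes per list by strongest summit, 2 summits on each side of each distance limit, CG44002, every arm and every string. Sequences are shown for the 8 strongest and the 2 lowest in A and T, leaving out 1 arm. The members and lists were chosen with earlier results of these data known, and 13 listed symbols had no match in the annotation and are not analysed here. Patterns for 3 lists were corrected after the matches were seen. Alternatives covered replicates, signal, annotation, distance limits, summit position and windows. The code was tested on simulated summits and planted strings, which it recovered. Python 3.11.15, numpy 2.4.6, pandas 2.3.3, scipy 1.17.1 and matplotlib 3.10.9 were used.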

Additional observations from a re-analysis of the deposited data

How the results depend on the processing

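Each replicate was set aside in turn by keeping the IDR summits that lay inside the top N of both others. The IDR list itself still came from all 3 replicates, so this is a filter and not a new call. The share of near-start summits was then 11.4 to 11.9% and the ratio to intergenic density beyond 5 kb 2.35 to 2.43. The A/T excess over flanks was 12.4 to 12.8 points, the 3L ratio 1.91 to 2.00 and the bound-start ratio 3.32 to 3.60. With the stronger part of the list by signal (its upper 50%), these were 10.8%, 2.54, 12.9 points, 2.16 and 4.36. The support in 3 replicates was then 94.0%, the percentile difference to summits beyond 5 kb 4.98 points and the A/T difference -1.46 points. Summits in the top N of all 3 replicates gave an A/T excess of 12.9 points and a 3L ratio of 1.99.

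With coding genes only, the share was 10.8%, the ratio to beyond 5 kb 1.79, divergent to tandem 1.31, the A/T excess 11.7 points, the 3L ratio 1.55 and the bound-start ratio 3.00. Transposable elements kept as genes gave 1.92 for the ratio to beyond 5 kb and an A/T excess of 12.3 points, and the percentile difference turned to -0.458 points, below all 3 replicate values. With 1 start per gene the bound-start ratio was 3.47. A lower limit of 1000 bp gave a share of 9.34% and a ratio of 2.23. An upper limit of 2 kb gave a share of 6.90%, divergent to tandem 1.06 and an A/T excess of 11.6 points. One of 10 kb gave 16.1%, a ratio of 4.00, a percentile difference of 6.24 points and an A/T excess of 12.7 points.

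The A/T excess was 12.5 points at peak middles, 9.69 points in 200 bp windows and 10.3 points against flanks 1000 bp away, and the A/T difference to beyond 5 kb was -0.0434 points in 200 bp windows. Requiring summits within 100 bp gave a support of 59.1%. Alternatives chosen after seeing the data gave 2.19 for the ratio to beyond 5 kb without windows rich in transposable elements, 1.46 for 3L without its 2 densest windows, and 2.93 for bound starts over 2 kb away. The top N filter on the other replicates was also applied to the strings. Without replicate 1 (-0.36 points) or replicate 2 (-0.372 points), the AP-1 string was less frequent at summits than in windows. It was more frequent without replicate 3 (0.444 points). The causes of these shifts were not tested. No paired analysis was possible because the series has no second group to pair; differences between classes were taken within each replicate. The pooled list was not called again without a replicate, and unknown read depth limits every count.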

Other observations

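Near-start intergenic summits low in A and T differed from the rest in a string of the GAGA factor, a protein of promoters and Polycomb elements. This was noticed after the shares by A/T content were seen, and was not tested. Among the 52 summits whose 200 bp held under 55% A and T, GAGAGAG lay near 8 (15.4%, 95% exact interval 6.88 to 28.1%), against 1.61% of the other 807 and 3.27% of territory windows with that content. In the top N of replicates 1, 2 and 3 the share was 13.6%, 7.32% and 14.6% (11.8% ± 3.93, SD, n = 3). The low-A/T summits were few in each replicate, 59, 41 and 48. Promoter summits of the same content had a share of 16.3% (53 of 326), and intergenic summits beyond 5 kb 15.8% (3 of 19), so the string was not particular to the near-start class.

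The strongest 85 near-start summits held 70.3% A and T in 100 bp and the weakest 85 held 66.9%, at median distances of 1487 and 1269 bp from a start. On 3L the median signal was 155 and on the other large arms 141, and the summits there held 69.6% and 68.6% A and T.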
